A study of Mus musculus with 10 samples.

Results

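Rab5a, Cav2, Anxa8 and Atg3 encode proteins of the membranes through which a cell takes up, sorts and breaks down cargo. Their transcripts were measured in extracellular vesicles of mouse brain. They were chosen as the 4 genes of endosome, caveola, annexin and autophagy biology among the 46 probes that were matched to a gene symbol. Symbols were looked up only for the 50 probes whose names start with A_51_P, out of 60823 probes in all. Each gene had 1 such probe, printed as 10 spots on every array. The filter on dim probes was passed by 3 of the 4 genes, beside 43079 of all 60823 probes. The probes were named through the RefSeq transcript they carry (NM_025887 for Rab5a, NM_016900 for Cav2, NM_013473 for Anxa8 and NM_026402 for Atg3), and all 4 genes are protein-coding.

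The vesicles came from adult male C57BL/6J mice that breathed either ethanol vapor (chronic intermittent ethanol, CIE) or room air (Control) on a schedule of 4 weeks, with 5 days per week and 8 h per day. Each group had 5 arrays, and a sample is called by its group and the number in its title. Brains were taken whole just after the last exposure, so the vesicles are a mixture that may come from any cell type of the brain. The labels leave unsaid whether a sample is 1 animal or a pool. The p-values therefore cover only the variation among these samples, part of which may be technical.

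Extracellular vesicles form either by budding from the plasma membrane or inside endosomes that fuse with it. Rab5a is a small GTPase that directs the fusion of early endosomes. Cav2 (caveolin-2) assembles with caveolin-1 in caveolae, flask-shaped pits of the plasma membrane that are best known in endothelial cells. Anxa8 is a member of the annexins, proteins that bind phospholipid membranes in a calcium-dependent way, and has been linked to late endosomes. Atg3 is the enzyme that hands LC3-family proteins to a membrane lipid while an autophagosome grows. Endosomes and autophagosomes both deliver to lysosomes, and RNA in vesicles need not follow the RNA of the cells that shed them.

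The arrays differed in brightness and quality. The 75th percentile of the signal ran from 69.7 to 192 intensity units, and the share of probes that stood well above background ran from 61.6% to 77.0%. The arrays were read in 2 scans, of which scan 1 held 5 Control and 3 CIE arrays and scan 2 held CIE 8 and CIE 10 alone. Control 7 and CIE 8 stood apart, with a control probe for human GAPDH (Human-GAPDH_5) at 2.80 and 3.49 log2 units against at most 0.47 on the other 8 arrays. Another human GAPDH control probe (Human-GAPDH_3) was bright on every array, with a smaller gap, at 5.87 and 6.64 against 4.22 to 5.30. A mouse GAPDH control probe (Mouse-GAPDH_5) was lowest on the same arrays, at 3.25 and 3.09 against 3.87 to 4.64. The 3′ minus 5′ signal of mouse GAPDH, a sign of RNA integrity, was 0.90 ± 0.29 (SD, n = 5) in CIE and 0.58 ± 0.32 (SD, n = 5) in Control. Brain markers with a named probe (listed here as Chgb and Gabrg1 for neurons, Apoe for astrocytes, Mbp for oligodendrocytes) were well above background on 10 of 10 arrays. The same held for 33078 of all 60823 probes. Whether each is specific to the cell type it was listed for was not tested. None of the 7 endothelial markers listed had a named probe, so the cell type closest to Cav2 could not be read through named probes of its other genes. Markers listed for microglia and macrophages, pericytes and smooth muscle, choroid plexus and ependyma, and red blood cells had no named probe either.

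None of the 3 tested genes differed between CIE and Control beyond the spread between samples. The limma test called 0 of the 3, against 0% of 43079 tested probes at an adjusted p under 0.05 and 2.14% (921 probes) at an unadjusted p under 0.05, a level that 0 of the 3 genes reached. That count of 921 depended on single arrays, at 402 without Control 9, 412 without Control 4, 710 to 1307 without any 1 of 6 others, and 2345 and 2347 without CIE 10 and CIE 5. It was 6389 with consecutive sample numbers as a block, where none of the 3 genes reached that level either. In all 4 genes the CIE and Control values overlapped, whereas they did not overlap in 0.32% (137) of the 42857 tested probes with a value on all 10 arrays. Levels below are log2 intensities relative to the 75th percentile of the array, and fold changes are ratios of these relative levels. For such a mixture, fewer vesicles from one cell type and less RNA per vesicle cannot be told apart.

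**Figure D1:**
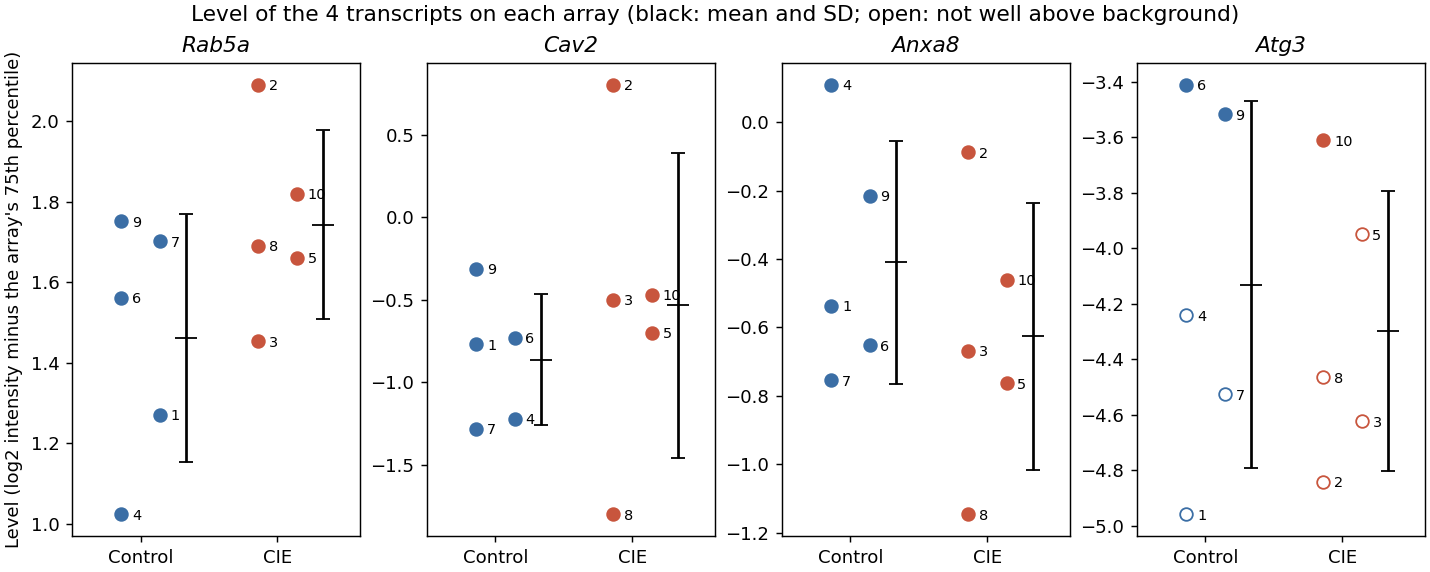
Level of Rab5a, Cav2, Anxa8 and Atg3 (log2 intensity minus the 75th percentile of the array) on each of 5 Control (blue) and 5 CIE (red) arrays, with the sample number beside each point and the mean ± SD in black. Open points mark arrays where the probe was not well above background. CIE and Control overlap in every panel, and CIE 2 is the highest of all 10 arrays for Rab5a (2.09) and Cav2 (0.80).

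Rab5a, the early endosome GTPase, was well above background on 10 of 10 arrays, with the smallest spread between spots of the 4 genes. Its processed intensity was 272 on Control 1, 244 on Control 4, 245 on Control 6, 298 on Control 7 and 647 on Control 9. In CIE it was 445 on CIE 2, 213 on CIE 3, 230 on CIE 5, 225 on CIE 8 and 487 on CIE 10. Control 9 and CIE 10, the brightest for Rab5a, were also the arrays with the highest 75th percentile of all probes, 192 and 138.

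Relative to that percentile, Rab5a stood at 1.27 on Control 1, 1.02 on Control 4, 1.56 on Control 6, 1.70 on Control 7 and 1.75 on Control 9. In CIE its relative level was 2.09 on CIE 2, 1.45 on CIE 3, 1.66 on CIE 5, 1.69 on CIE 8 and 1.82 on CIE 10. The CIE arrays took the top 2 places and Control 4 and Control 1 the lowest, while the other 6 arrays of both groups lay among each other. The mean was 1.74 ± 0.23 (SD, n = 5) in CIE and 1.46 ± 0.31 (SD, n = 5) in Control. The log2 difference was 0.28 ± 0.21 (standard error), with a 95% interval of -0.18 to 0.75, or a 1.22-fold ratio with an interval from 0.88 to 1.68 (limma adjusted p = 0.989). Without Control 4 the difference was 0.17, and without Control 7 and CIE 8 it was 0.36.

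Cav2, the caveolin, was well above background on 10 of 10 arrays and varied most of the 3 tested genes. Its relative level was -0.77 on Control 1, -1.22 on Control 4, -0.73 on Control 6, -1.28 on Control 7 and -0.31 on Control 9. In CIE it was 0.80 on CIE 2, -0.50 on CIE 3, -0.70 on CIE 5, -1.80 on CIE 8 and -0.47 on CIE 10. The CIE group thus held both the highest and the lowest of the 10 values, a 6.09-fold span, with the Control arrays between them. CIE 8, the lowest, was the dimmest array (75th percentile 69.7), where the median Cav2 spot was 2.61 times the local background against 14.2 times on CIE 2. CIE 5 and CIE 3 were nearly as dim (75th percentile 72.7 and 77.6), with Cav2 at -0.70 and -0.50. Control 7, the next lowest array for Cav2, stood apart together with CIE 8 on the control probe Human-GAPDH_5. How either trait bears on the Cav2 level was not tested.

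The Cav2 mean was -0.53 ± 0.93 (SD, n = 5) in CIE and -0.86 ± 0.40 (SD, n = 5) in Control. The log2 difference was 0.33 ± 0.41 (standard error), with a 95% interval of -0.57 to 1.23, a 1.26-fold ratio with an interval from 0.67 to 2.34 (limma adjusted p = 0.989). It turned to -0.0052 without CIE 2, grew to 0.65 without CIE 8 and to 0.54 without Control 7 and CIE 8, and was 0.73 with scan as a block, a value that rests on scan 1 alone (limma adjusted p = 0.784). CIE 2 also had the highest 3′ minus 5′ signal of mouse GAPDH, 1.24 against 0.11 to 0.97 on the other arrays, and its part in the Cav2 value was not tested.

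Anxa8, the annexin, was well above background on 10 of 10 arrays and its mean lay lower in CIE, the opposite sign to Rab5a and Cav2. Its relative level was -0.54 on Control 1, 0.11 on Control 4, -0.65 on Control 6, -0.76 on Control 7 and -0.22 on Control 9. In CIE it was -0.09 on CIE 2, -0.67 on CIE 3, -0.76 on CIE 5, -1.15 on CIE 8 and -0.46 on CIE 10. Control 4 was the highest array and CIE 8 the lowest, and the 8 others were mixed. Control 4 was thus the highest array for Anxa8 and the lowest for Rab5a.

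The Anxa8 mean was -0.63 ± 0.39 (SD, n = 5) in CIE and -0.41 ± 0.35 (SD, n = 5) in Control. The log2 difference was -0.22 ± 0.25 (standard error), with a 95% interval of -0.77 to 0.34, a ratio of 0.861 with an interval from 0.588 to 1.26 (limma adjusted p = 0.989). It was -0.09 without Control 4, -0.09 without CIE 8, -0.10 with scan as a block (where the median of all tested probes was also -0.10), -0.35 without CIE 2 and -0.17 without Control 7 and CIE 8.

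Atg3, the conjugation enzyme of autophagy, was near the detection limit. More than 50% of its spots were well above background on Control 6, Control 9 and CIE 10, that is 2 of 5 Control and 1 of 5 CIE arrays (Fisher's exact test, two-sided p = 1.0). By spots, 19 of 49 were well above background in Control and 12 of 49 in CIE, but the spots of an array share its RNA and are not replicates. All 10 spots passed on Control 9 and on CIE 10, the arrays with the highest 75th percentile, while none did on Control 1, Control 7, CIE 2, CIE 3 or CIE 8.

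The processed intensity of Atg3 was 16.8 on Control 9, 11.3 on CIE 10 and 7.83 on Control 6, and between 3.15 and 6.36 on the other 7 arrays. Its relative level was -4.96 on Control 1, -4.24 on Control 4, -3.41 on Control 6, -4.53 on Control 7 and -3.52 on Control 9. In CIE it was -4.84 on CIE 2, -4.62 on CIE 3, -3.95 on CIE 5, -4.47 on CIE 8 and -3.61 on CIE 10. The mean of these values was -4.30 ± 0.51 (SD, n = 5) in CIE and -4.13 ± 0.66 (SD, n = 5) in Control, so the groups overlapped over nearly their whole range. The difference of -0.17 rests mostly on arrays where the probe was not well above background. Its sign turned to 0.11 in the authors' deposited table, without Control 6 it was 0.012 and without Control 7 and CIE 8 -0.22, so no direction is given. The exact permutation test over 252 relabelings gave a two-sided p of 0.643 for Atg3.

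The same test over 252 relabelings gave an exact two-sided p of 0.159 for Rab5a, 0.516 for Cav2 and 0.381 for Anxa8. For size, the median absolute difference over all tested probes was 0.22 log2 units, and 61.2% of them had a smaller one than Rab5a, 68.5% than Cav2 and 49.4% than Anxa8. The spread between samples of a group placed the genes further apart. The pooled within-group SD was 0.27 for Rab5a, smaller than in most tested probes (12.4% had a smaller one), 0.37 for Anxa8 (29.4%) and 0.71 for Cav2 (76.3%), where the median over all tested probes was 0.49. The levels of these 3 genes average 8 to 10 spots per array. Most other probes had a single spot, since an array held 61537 non-control spots for 60823 probes. The ranks by SD and by absolute difference therefore set averaged values against mostly unaveraged ones.

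**Figure D2:**
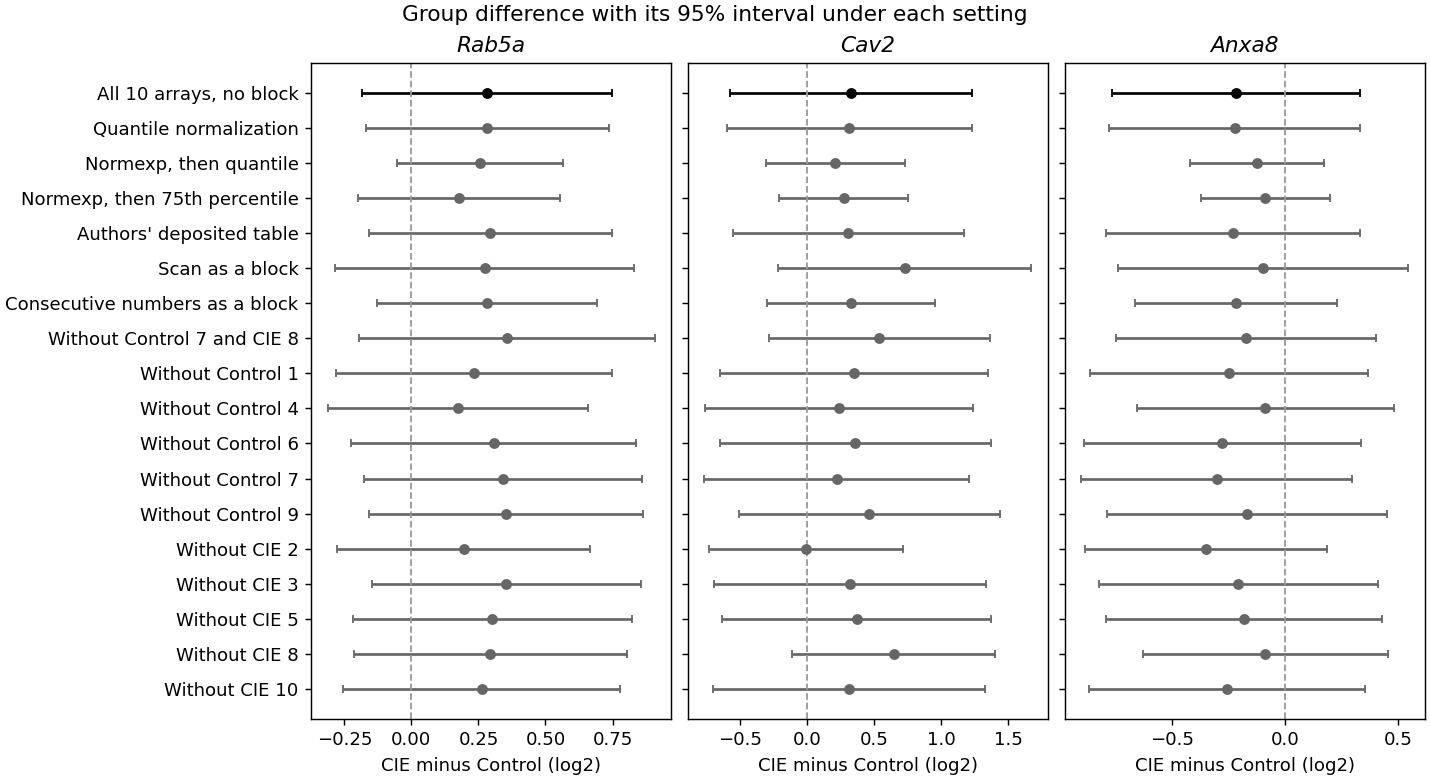
Difference of the group means (CIE minus Control, log2) of Rab5a, Cav2 and Anxa8 with its 95% interval from limma, for the fit on all 10 arrays and for other scalings, blocks and sets of arrays; the horizontal scales differ between panels. Each interval spans 0, and the Cav2 value moves from -0.0052 without CIE 2 to 0.73 with scan as a block.

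The 10 spots of each probe separate error within an array from differences between arrays. The SD between spots of Rab5a had a median of 0.06 log2 units over the arrays. The level of an array is the mean of 8 to 10 spots, and for Rab5a the standard error of that mean was at most 0.03, while the SD of the level between the 10 samples was 0.30. For Cav2 the standard error was at most 0.09 and the SD between samples 0.69, and for Anxa8 the values were 0.06 and 0.37. The SD between samples holds biological and technical differences together. For Atg3 the median spot SD was 0.56, the standard error of the mean reached 0.23 and the SD between samples was 0.56. On the 3 arrays where the probe was well above background the spot SD fell between 0.14 and 0.22.

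One Cav2 spot, at row 153 and column 29 of the grid, was brighter than the median of the kept Cav2 spots on 10 of 10 arrays, by 0.20 to 1.69 log2 units with a median of 0.38. The scanner program marked it as an outlier on 8 of the 10 arrays, and it was left out there. It was kept on CIE 5 and Control 6, where it stood 0.29 and 0.28 above the median spot. On CIE 8 it read 60.1 intensity units, while the other Cav2 spots there lay between 15.9 and 28.0. With all outlier spots kept, the Cav2 difference was 0.33, the same as without them after rounding. Of 100 spots per gene over the 10 arrays, 10 were marked for Cav2, 2 for Atg3 and 1 each for Rab5a and Anxa8.

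**Figure D3:**
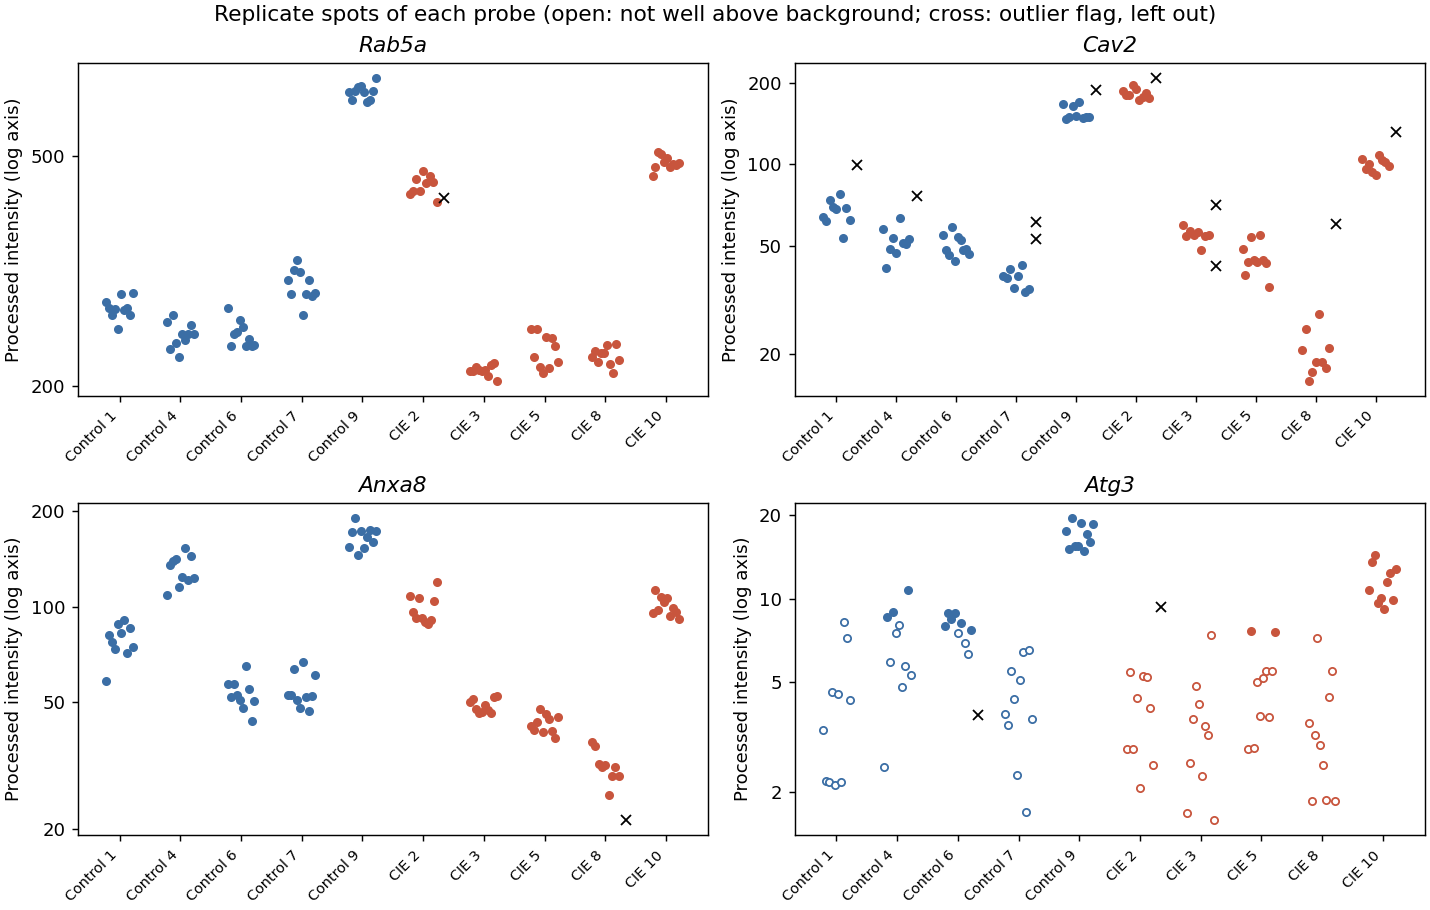
Processed intensity (log axis) of every replicate spot of the 4 probes on 5 Control (blue) and 5 CIE (red) arrays. Open points are spots not well above background, and crosses are spots with an outlier flag, which were left out. Rab5a, Cav2 and Anxa8 form tight groups of spots on most arrays. Atg3 spots scatter widely except on Control 6, Control 9 and CIE 10.

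The 3 tested genes were also compared with each other over the arrays, in 3 pairs. Cav2 and Anxa8 had a Pearson r of 0.54 (permutation p = 0.0993, two-sided, n = 10, 0.172 after Benjamini-Hochberg adjustment over 3 pairs) and a Spearman rho of 0.50 (permutation p = 0.143, adjusted 0.215). Rab5a and Cav2 had an r of 0.53 (permutation p = 0.114, n = 10, adjusted 0.172) and a rho of 0.53 (permutation p = 0.122, adjusted 0.215), and Rab5a and Anxa8 an r of -0.16 (permutation p = 0.667, n = 10, adjusted 0.667) and a rho of 0.07 (permutation p = 0.866, adjusted 0.866). None of the 3 passed.

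Leaving out the 2 arrays farthest from the median of the first gene took r to -0.099 for Cav2 and Anxa8 (without CIE 2 and CIE 8), and to -0.068 for Rab5a and Cav2 and 0.029 for Rab5a and Anxa8 (both without CIE 2 and Control 4). The Spearman rho over the same 8 arrays was 0.19, 0.33 and 0.24 in that order. The values of r above 0 for Cav2 with Anxa8 and for Rab5a with Cav2 were not seen without those arrays, whose removal also narrows the range, while rho stayed above 0. Under quantile normalization r was 0.57 for Cav2 and Anxa8, 0.33 for Rab5a and Cav2 and -0.34 for Rab5a and Anxa8. Within scan 1 (8 arrays) r was 0.72 for Rab5a and Cav2 (exact permutation p = 0.0489, adjusted 0.147), 0.32 for Cav2 and Anxa8 (exact permutation p = 0.470, adjusted 0.705) and -0.12 for Rab5a and Anxa8 (exact permutation p = 0.778, adjusted 0.778).

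Each tested gene was then set beside the 42 other named genes that passed the filter, and the 3 with the highest r over the 10 arrays are given as a description, with no test, since they were picked for that value. All genes share the arrays and their scaling. For Cav2 these were Cpt1a, which brings fatty acids into mitochondria (r = 0.94), Uhrf1bp1l, a lipid transfer protein (r = 0.93), and Prdx2, a peroxiredoxin (r = 0.93), against a median r of 0.30 over the 42 genes. The Spearman rho of these 3 was 0.83, 0.89 and 0.82. Without CIE 2 and CIE 8, the ends of the Cav2 range, r was 0.85, 0.82 and 0.75. All 3 were highest on CIE 2 and lowest on CIE 8, as Cav2 was. Control 7 was the next lowest array for Cav2 and for all 3, and it was kept when CIE 2 and CIE 8 were left out. Control 7 and CIE 8 are the arrays that stood apart on the control probe Human-GAPDH_5, and their part in these values of r was not tested.

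Anxa8 was closest to Pex11a, which acts in peroxisome division (r = 0.84, rho = 0.82), followed by Uhrf1bp1l (r = 0.59, rho = 0.58) and Gsdmd, a pore-forming gasdermin (r = 0.58, rho = 0.53), against a median r of 0.20. Without CIE 8 and Control 4 these 3 values of r were 0.83, 0.88 and 0.54, so Uhrf1bp1l was then above Pex11a. Rab5a was closest to Carhsp1, an RNA-binding protein (r = 0.76, rho = 0.76), Gsta4, a glutathione transferase (r = 0.68, rho = 0.75), and Cpt1a (r = 0.53, rho = 0.33), against a median r of 0.11. Without CIE 2 and Control 4 these 3 values were 0.54, 0.53 and -0.31, so the r above 0 with Cpt1a was not seen without those arrays. Of the 3 genes, Cav2 thus had the highest r with another named gene, 0.94, and Rab5a the lowest top value, 0.76.

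**Figure D4:**
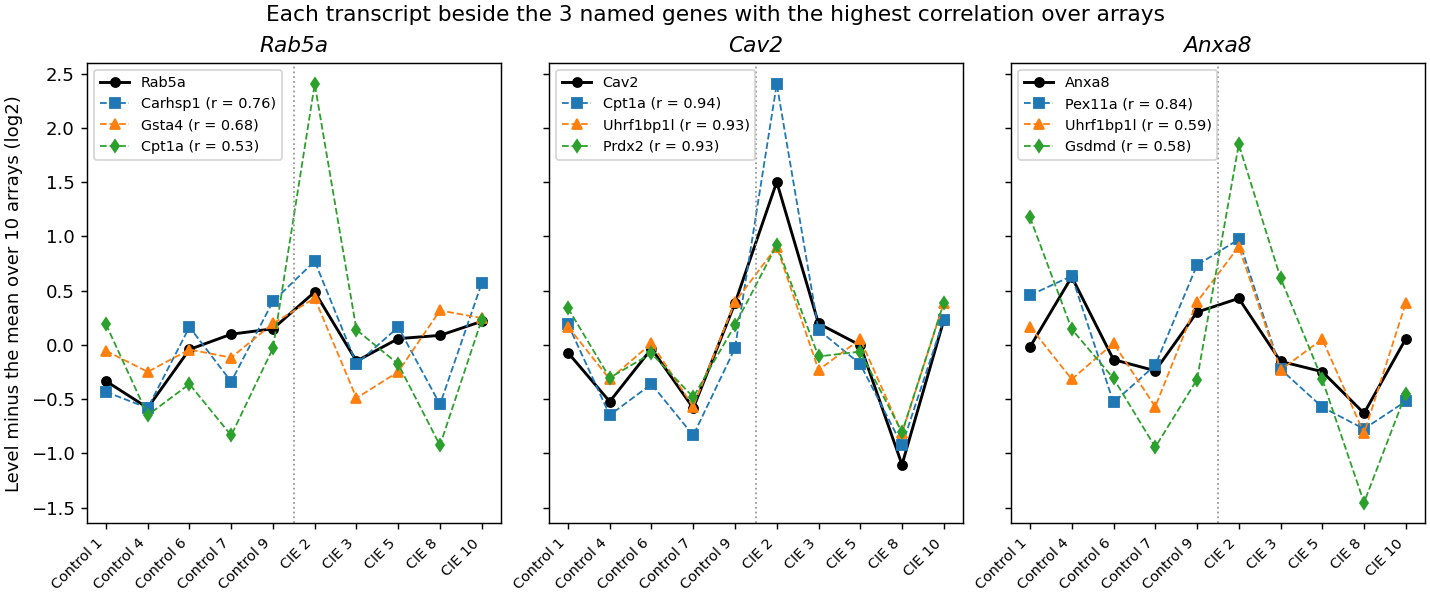
Level of Rab5a, Cav2 and Anxa8 (black) and of the 3 named genes with the highest Pearson r to each (colours), as log2 units around the mean over the 10 arrays. The 5 Control arrays are left of the dotted line and the 5 CIE arrays right of it; lines only guide the eye, since the arrays have no order. Cav2 and its 3 closest genes share the peak on CIE 2 and the low on CIE 8.

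The wider pathways could hardly be read from named probes. Of 57 genes listed for endosomes and Rab GTPases, 15 for caveolae, 14 for annexins and their partners and 38 for autophagy, 1 each had a named probe, which was Rab5a, Cav2, Anxa8 and Atg3 in turn. Of 15 genes listed for extracellular vesicles, 1 had a named probe, the actin gene Actb, with a log2 difference of 0.20 and a standard error of 0.42 (limma adjusted p = 0.989). Other members of these pathways may lie among the probes for which no gene symbol was looked up, which are not analysed by gene here.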

How the data were processed

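The deposited scanner files hold linear intensity per spot, made by the authors with Agilent Feature Extraction 11.0.1.1 from Cy3-labelled RNA per the file headers, which also record its background subtraction. A value table deposited by the authors was used as an alternative and taken as log2 values; how they scaled it is not given in the sources, but its columns ranked probes like the scanner array of the same sample (rank correlation 0.990 to 0.999) and shared a median of 4.60. Non-control spots without an outlier flag were averaged per probe as log2 values and centred on the 75th percentile of each array. A probe was well above background on an array when more than 50% of its spots were. Probes meeting this on at least 5 of 10 arrays (43079) were tested with limma 3.58.1 (R 4.3.3, lmFit and eBayes), with Benjamini-Hochberg adjustment over all of them and a threshold of 0.05. With 5 arrays per group, a group difference had a standard error of 0.302 at the median probe, which bounds the precision. No spot was saturated. Gene names came from a RefSeq table and were looked up only for the 50 probes whose names start with A_51_P. The 3 genes most like each tested member were named by Pearson r over the 10 arrays, and listed pathway genes wherever a named probe existed. Correlations between members used 100000 permutations. Alternatives covered background, scaling, filter, spots, scan, sample numbers and single arrays. The members and lists were chosen with earlier results of these data known. The code was tested on simulated data.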

Additional observations from a re-analysis of the deposited data

How the results depend on the processing

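The filters, the unmoderated and permutation tests and the block of consecutive numbers leave a difference as it is, and the fit within scan 1 repeats that of scan as a block. Over the 19 other settings, the direction was the same under 19 for Rab5a (differences from 0.17 to 0.36) and for Anxa8 (from -0.35 to -0.09), and under 18 for Cav2, which ranged from -0.0052 without CIE 2 to 0.73 with scan as a block. Leaving out 1 array at a time gave 0.17 to 0.35 for Rab5a, -0.0052 to 0.65 for Cav2 and -0.35 to -0.09 for Anxa8. Limma called 0 probes under each setting, and the lowest unadjusted p of the 3 genes over all settings was 0.0936 for Rab5a, 0.0868 for Cav2 and 0.177 for Anxa8. The 921 probes at an unadjusted p under 0.05 became 2172 with scan as a block, 2475 within scan 1, 1599 without a filter, 601 without Control 7 and CIE 8, and 6389 with consecutive sample numbers as a block. Here the lowest adjusted p of the 3 genes was 0.479 for Rab5a, 0.589 for Cav2 and 0.620 for Anxa8, each with consecutive sample numbers as a block. That block pairs each Control with a CIE array, a pairing which the labels do not state. Inside those 5 consecutive pairs, the CIE array was the higher one in 4 for Rab5a, 3 for Cav2, 1 for Anxa8 and 2 for Atg3. Normexp on the median signal, chosen after seeing the data because the planned mean signal is not a column used here, was run in place of the planned normexp settings, which were not run. With 75th percentile scaling it moved the median of all probes by 0.14 log2 units, from -0.05 to 0.09; relative to that median Rab5a was 0.09 (0.34 before), Cav2 0.19 (0.38) and Anxa8 -0.17 (-0.16), and with scan as a block 0.37, 0.83 and 0.0031, while under normexp with that scaling Atg3 turned to 0.19. Atg3 kept its sign in 16 of the 19 and ranged from -0.37 without Control 1 to 0.19; without a filter its limma adjusted p was 0.970. It has no value under the filter for all 10 arrays. The correlation of Rab5a with Cav2 turned from 0.53 to -0.068, that of Cav2 with Anxa8 from 0.54 to -0.099 and that of Rab5a with Anxa8 from -0.16 to 0.029 without the 2 farthest arrays, where rho was 0.33, 0.19 and 0.24. The cause of these turns was not tested. As deviations from group means, chosen after seeing the data, r in that order of pairs was 0.48, 0.68 (rho 0.59) and -0.0047 (n = 10). None passed after adjustment.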
